A study of Mus musculus with 10 samples.

Results

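Gene expression in the hypothalamus was set against that in the prefrontal cortex, using the 6 libraries of these regions out of the 10 libraries available. The members were chosen by their labelled region alone, with 2 hypothalamus libraries (male NP and male LP) and 4 prefrontal cortex libraries (male NP, male LP, female NP and female LP), and genes on the X and Y chromosomes were left out. All mice were of the CF1 stock, an outbred laboratory mouse, and were sampled at postnatal day 56. NP stands for a normal-protein and LP for a low-protein diet, which the parents ate at mating and the dams went on eating while pregnant and nursing, and every pup was given NP after weaning at postnatal day 21. Each combination of region, sex and diet is 1 library, so diet and sex enter as terms of the region comparison and are not its subject. The labels do not say whether a library came from 1 animal or from several, nor whether both regions were taken from the same animals. The p-values therefore measure only the spread between these libraries, and any animal shared between regions is not modelled.

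The hypothalamus holds small groups of neurons that make peptide hormones and neuropeptides for pituitary control, water balance, feeding, sleep and reproduction. Its nuclei are laid down by homeodomain transcription factors of the ventral forebrain, and its excitatory neurons load glutamate with the vesicular transporter encoded by Slc17a6. The prefrontal cortex is a layered neocortical area whose main neurons are glutamatergic projection neurons, which use the transporter encoded by Slc17a7 and are specified by transcription factors such as Tbr1 and Neurod2.

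The labelled regions were checked with 4 marker genes, all given in CPM, the counts of a gene per 1000000 counts of the library after scaling by the trimmed mean of M values (TMM). Avp, which encodes vasopressin, had 308 and 163 CPM in the male NP and male LP hypothalamus libraries and 0.262, 0.0809, 0.403 and 0 CPM in the prefrontal cortex libraries, in the order male NP, male LP, female NP and female LP. Otp, a homeodomain factor of neurosecretory neurons, had 62 and 58 CPM in hypothalamus and 0.175, 0.0809, 0.302 and 0.326 CPM in prefrontal cortex. Both genes were high in the hypothalamus libraries alone, and the ranges of the regions did not overlap. Slc17a7, the cortical vesicular glutamate transporter, had 3.08 and 3.73 CPM in hypothalamus and 1946, 2182, 2156 and 2184 CPM in prefrontal cortex. Cux2, a factor of upper-layer cortical neurons, had 43.8 and 45.8 CPM in hypothalamus and 197, 195, 208 and 231 CPM in prefrontal cortex. These genes were high in all 4 prefrontal cortex libraries and lower in both hypothalamus libraries, so the markers go with the labels, although Cux2 was far from absent in hypothalamus.

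The libraries held 10256882 to 16265481 counts in total, and 3 counts, the most that an observed 0 allows, correspond to 0.171 to 0.326 CPM. Across the 16637 genes tested, log2 CPM correlated with Pearson r of 0.989 between the hypothalamus libraries, 0.989 to 0.991 within prefrontal cortex and 0.896 to 0.906 between regions, as a description over genes, which are not independent. The hypothalamus libraries themselves differed at some genes. Slc6a3, the dopamine transporter, had 5.53 and 49.2 CPM in the NP and LP libraries, Hcrt had 86.8 and 18.3 CPM, and the pituitary hormone gene Gh had 79.9 and 14.3 CPM. The smooth muscle gene Acta2 had 16 and 54 CPM, and the cortical factor Tbr1 had 3.48 and 0.632 CPM. The sample code in the title of the LP hypothalamus library also differs in its middle number from that of the other 5 libraries, and the labels do not say what the code means. Animal, diet, dissection and what this code stands for cannot be told apart for these differences, because each hypothalamus library is the only one of its diet.

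Promoter sequences are shown for 3 genes that were high in hypothalamus and 3 that were high in prefrontal cortex, so that the letters ahead of genes with opposite regional levels can be read side by side. Each is the 250 bases before the RefSeq start site on GRCm38.p6, written 5′ to 3′ in the direction of the gene. Capitals mark matches, on either strand, to TAATTA (a homeodomain core), CAGATG (an E-box of proneural factors, whose reverse complement reads CATCTG) or TGACGTCA (the cyclic AMP response element). The motifs do not overlap in these windows.
Avp, minus strand of chr2:130582589-130582838, higher in hypothalamus: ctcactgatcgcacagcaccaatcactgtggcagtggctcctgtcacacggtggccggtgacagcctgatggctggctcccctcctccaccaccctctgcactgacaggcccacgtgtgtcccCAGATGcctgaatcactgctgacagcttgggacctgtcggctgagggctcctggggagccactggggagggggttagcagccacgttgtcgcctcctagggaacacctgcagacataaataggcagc
Otp, plus strand of chr13:94875386-94875635, higher in hypothalamus: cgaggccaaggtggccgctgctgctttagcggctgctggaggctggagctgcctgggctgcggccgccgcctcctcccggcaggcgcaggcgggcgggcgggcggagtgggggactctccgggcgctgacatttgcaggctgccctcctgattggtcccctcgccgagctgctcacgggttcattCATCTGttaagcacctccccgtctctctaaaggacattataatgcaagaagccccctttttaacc
Cartpt, minus strand of chr13:99900684-99900933, higher in hypothalamus: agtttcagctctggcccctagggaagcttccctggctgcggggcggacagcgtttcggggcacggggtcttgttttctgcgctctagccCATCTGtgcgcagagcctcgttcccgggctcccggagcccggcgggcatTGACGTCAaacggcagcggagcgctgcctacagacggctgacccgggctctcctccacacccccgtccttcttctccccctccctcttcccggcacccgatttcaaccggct
Slc17a7, plus strand of chr7:45163671-45163920, lower in hypothalamus: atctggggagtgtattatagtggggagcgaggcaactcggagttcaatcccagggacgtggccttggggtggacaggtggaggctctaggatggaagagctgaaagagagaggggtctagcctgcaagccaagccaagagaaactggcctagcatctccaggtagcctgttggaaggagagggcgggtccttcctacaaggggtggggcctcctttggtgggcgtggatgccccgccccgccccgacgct
Neurod2, minus strand of chr11:98329646-98329895, lower in hypothalamus: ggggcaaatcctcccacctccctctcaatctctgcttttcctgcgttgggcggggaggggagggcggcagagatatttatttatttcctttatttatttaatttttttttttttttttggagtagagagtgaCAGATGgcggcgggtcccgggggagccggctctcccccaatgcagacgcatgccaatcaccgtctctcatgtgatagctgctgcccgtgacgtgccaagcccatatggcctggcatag
Tbr1, plus strand of chr2:61804203-61804452, lower in hypothalamus: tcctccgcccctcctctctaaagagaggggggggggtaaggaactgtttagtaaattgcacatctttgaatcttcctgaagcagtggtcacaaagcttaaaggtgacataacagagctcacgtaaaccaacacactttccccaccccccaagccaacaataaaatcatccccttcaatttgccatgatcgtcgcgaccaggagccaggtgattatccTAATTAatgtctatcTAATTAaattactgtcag
CAGATG occurred once in the Avp, Otp, Cartpt and Neurod2 windows, at 127, 65, 161 and 118 bases before the start, respectively, and so on both sides of the regional difference. TAATTA occurred 2 times in the Tbr1 window and TGACGTCA 1 time in the Cartpt window, 112 bases before its start, while the Slc17a7 window held none of the 3 motifs. Of 31396 RefSeq promoter windows of this length outside X and Y, 14.5% held CAGATG, 4.81% TAATTA and 1.58% TGACGTCA. Windows were matched for 70.0% of the tested genes, so no share among tested genes is given. A match is a description of letters and not evidence of a bound factor, and a shared motif set by region was not tested.

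The regions differed at a large share of all genes. Genes with enough counts for edgeR's filter on low counts were tested, and enough counts in 1 region alone let a gene pass. A gene nearly absent from 1 region, such as Pmch or Npvf in prefrontal cortex, could then be called only towards the other. Counts over gene lists that hold such genes depend on the filter. Of 16637 genes tested with edgeR's quasi-likelihood test, 9604 (57.7%) had a Benjamini-Hochberg adjusted p below 0.05 and are called here, with 4900 (29.5%) higher and 4704 (28.3%) lower in hypothalamus. Because most tested genes were called, a call alone says little about any gene, and sizes are given throughout. Counts of called members in each gene list below are to be read beside these shares of 29.5% higher and 28.3% lower. Calls with at least a 2-fold difference numbered 2204 higher (13.2%) and 1750 lower (10.5%), and calls with at least an 8-fold difference 395 higher (2.37%) and 226 lower (1.36%). The libraries of the regions did not overlap at 6006 genes with hypothalamus above (36.1%) and 5537 with hypothalamus below (33.3%). The median log2 difference over all tested genes was 0.02. With library totals in place of TMM this median moved by 0.25 to 0.27 and the calls became 7373 higher and 3053 lower, so the call of a small difference can depend on the scaling. Both hypothalamus libraries are male and sex is a term of the fit, so the fitted log2 difference rests almost wholly on the male libraries. The female prefrontal cortex libraries add mainly to the estimate of spread. Each value after ± is an approximate standard error (SE) of the fitted log2 difference, hypothalamus minus prefrontal cortex. It can be far too small where a region has few counts, and should not be read there as the full uncertainty. For Avp, with 8 counts over prefrontal cortex, it was 0.21, yet the pooled ratio's interval from counting error alone was 651 to 2975-fold. For Calcr, with 4 counts, it was 0.31 and that interval was 183 to 1724-fold. Where leaving out 1 library moved a fold by more than 1.5 times, the lowest and highest log2 difference over the 6 fits that each leave out 1 library follow the value, with the library left out named by region (Hyp or PFC), sex and diet. These are bulk samples, in which fewer cells of a type and less RNA per cell cannot be told apart.

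**Figure D1:**
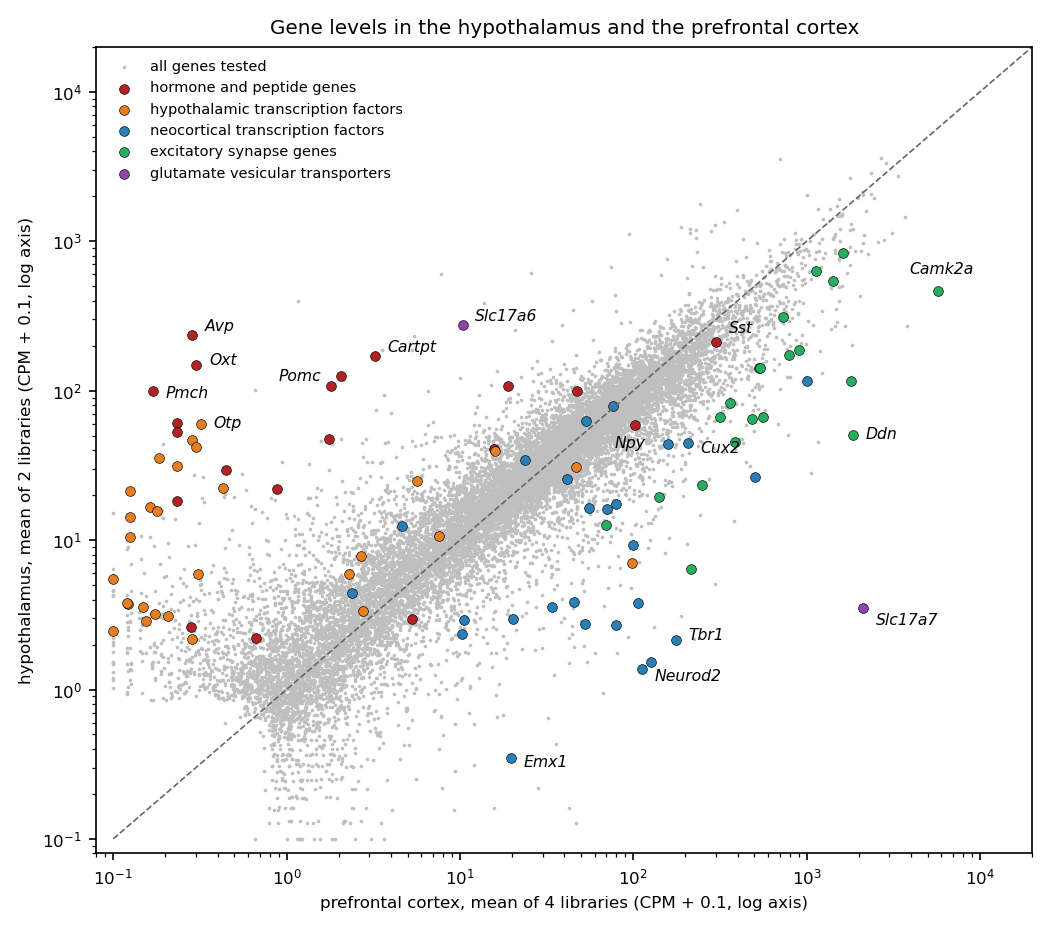
Mean level of each tested gene in prefrontal cortex (x axis, mean of 4 libraries) against hypothalamus (y axis, mean of 2 libraries), both as CPM plus 0.1 on log axes, with listed genes in colour and equal levels on the dashed line. Hormone genes such as Avp and Oxt lie far above the line, and Slc17a7, Neurod2, Tbr1 and Emx1 far below it.

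By size of the log2 difference, among called genes with a mean of at least 10 CPM and no overlap between regions, the 15 leading genes were Avp, Pmch, Oxt, Calcr, Dlk1, Otp, Gal, Hcrt, Nkx2-1, Isl1, Fezf1, Hdc, Six3, Asb4 and Nts. They comprise 6 neuropeptide genes, 5 transcription factor genes (Otp, Nkx2-1, Isl1, Fezf1 and Six3), the calcitonin receptor gene Calcr, the imprinted genes Dlk1 and Asb4, and Hdc, the histamine-making enzyme. The 15 leading genes in favour of prefrontal cortex held 2 predicted genes and 13 named ones. The named ones were Rtn4rl2, Slc17a7, Ovol2, Igfn1, Slc30a3, Adra1d, Neurod6, Neurod2, Tbr1, Emx1, Ankrd33b, Kcnh3 and Mas1. Slc30a3, which loads zinc into glutamatergic vesicles, had 3.02 and 1.14 CPM in hypothalamus and 215, 221, 219 and 239.7 CPM in prefrontal cortex, a log2 difference of -6.68 ± 0.20, from -7.61 without Hyp male NP to -6.13 without Hyp male LP. Rtn4rl2, a Nogo receptor family gene, had 1 count over both hypothalamus libraries and 1994 counts over the prefrontal cortex libraries, a pooled ratio of 1549-fold (95% counting interval 278 to 61221) in favour of prefrontal cortex. Kcnh3, a voltage-gated potassium channel gene, had 5.93 and 4.11 against 284 to 314 CPM, and Mas1, a receptor of the renin-angiotensin system, 0.456 and 0.632 against 23.2 to 38.9 CPM. Each of these genes was high in all 4 prefrontal cortex libraries. The absence of overlap between the regions was required by the selection and is no further result.

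The 8 hypophysiotropic and neurohypophysial genes encode the hormones released to the blood or to the pituitary. Of these, 6 were called higher in hypothalamus, 1 lower and 1 was not called, in each case beside 29.5% higher and 28.3% lower over all tested genes, with a median log2 difference of 5.56 against 0.02 over all tested genes. Oxt, the oxytocin gene, lies beside Avp on chromosome 2 (Oxt at chr2:130576173-130577054 on the plus strand, Avp at chr2:130580620-130582554 on the minus strand, mm10). Oxt had 204 and 92.2 CPM in the male NP and male LP hypothalamus libraries and 0.175, 0.323, 0.201 and 0.109 CPM in prefrontal cortex, a log2 difference of 9.12 ± 0.20, from 8.10 without PFC male NP to 10.11 without PFC male LP (edgeR adjusted p = 5.62e-10). For Avp the log2 difference was 10.36 ± 0.21, from 9.94 without Hyp male LP to 11.58 without Hyp male NP (adjusted p = 5.62e-10). For both genes the NP library was the higher of the hypothalamus pair, by less than the distance between regions. Trh, which encodes the releasing hormone of the thyroid axis, had 136 and 77.9 CPM against 0.873 to 2.43 CPM (log2 difference 5.95 ± 0.28, from 5.00 without PFC male NP to 7.25 without PFC male LP). Ghrh, which drives growth hormone release, had 19.7 and 16.7 CPM against 0 to 0.201 CPM, and Th, the first enzyme of dopamine synthesis, 41.9 and 52.7 CPM against 1.21 to 2.39 CPM. Gnrh1, the gene of the reproductive releasing hormone, was sparse in both regions, with 1.54 and 2.66 CPM against 0.262 to 0.705 CPM, and was called higher.

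Sst and Crh departed from the other members. Sst encodes somatostatin, which inhibits growth hormone release and is also made by cortical interneurons, and it had 242 and 184 CPM in hypothalamus and 270.2, 348, 298 and 288 CPM in prefrontal cortex. It was called lower in hypothalamus (log2 difference -0.54 ± 0.14), and its libraries did not overlap, but the call was lost with DESeq2 (log2 -0.54, adjusted p = 0.107), with library totals (log2 -0.29, adjusted p = 0.0979) and without PFC male LP (log2 -0.24, adjusted p = 0.0875). Crh, the releasing hormone of the adrenal axis, had 4.73 and 1.01 CPM in the NP and LP hypothalamus libraries and 5.94, 5.58, 4.03 and 5.11 CPM in prefrontal cortex. Its libraries overlapped, with the NP hypothalamus library inside the prefrontal cortex range and the LP library below it. The log2 difference was -1.0 ± 0.42, from -2.54 without Hyp male NP to -0.24 without Hyp male LP, and it was not called (adjusted p = 0.0682) although it was without Hyp male NP.

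All 8 peptides of the lateral hypothalamus were called higher, with a median log2 difference of 5.88. Pmch, which encodes melanin-concentrating hormone, had 125 and 73.1 CPM against 0 to 0.175 CPM, with 3 counts in all prefrontal cortex libraries together and a pooled ratio of 1437-fold (95% counting interval 491 to 6971). Hcrt, the gene of the wake-promoting orexins, had 86.8 and 18.3 CPM against 0.0873 to 0.243 CPM (log2 difference 8.16 ± 0.35, from 6.17 without PFC male NP to 9.80 without PFC male LP), and its NP library was several times the LP library. Gal, the galanin gene, had 73.9 and 47.2 against 0.0873 to 0.243 CPM, and Nts, the neurotensin gene, 37.3 and 21.4 against 0.201 to 0.437 CPM. Cartpt, which encodes an appetite-reducing peptide, had 164 and 177 CPM against 3.41, 3.88, 3.02 and 2.17 CPM (log2 difference 5.54 ± 0.13, adjusted p = 1.78e-09), with the closely matching hypothalamus libraries far above all prefrontal cortex libraries. Pdyn and Tac1, whose opioid and tachykinin peptides are also made in cortex, showed smaller differences. Pdyn had 103 and 97 against 41.6 to 50.9 CPM and Tac1 109 and 107 against 14.5 to 23.1 CPM, and neither overlapped between regions. Qrfp was sparse, at 2.05 and 2.97 against 0 to 0.302 CPM.

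The arcuate nucleus list holds the feeding peptides and the tachykinin of reproductive control, and 6 of its 7 measured members were called higher and 1 lower, with a median log2 difference of 5.54. Pomc, the precursor of the appetite-reducing melanocortins, had 117 and 132 CPM in hypothalamus and 1.75, 1.94, 2.52 and 1.63 CPM in prefrontal cortex (log2 difference 6.07 ± 0.15). Agrp, the opposing melanocortin antagonist, had 21.1 and 22.8 CPM against 0.961, 0.323, 1.41 and 0.435 CPM (log2 difference 5.10 ± 0.32, from 4.43 without Hyp male LP to 6.14 without Hyp male NP). Npy, which is made by the same arcuate neurons as Agrp and by cortical interneurons, went the other way, with 59.3 and 59 CPM against 91.3, 117, 106 and 97.4 CPM (log2 difference -0.81 ± 0.11). In each of these genes the hypothalamus pair lay close together and apart from the prefrontal cortex libraries. Tac2 had 40.7 and 40.4 CPM against 13 to 17.5 CPM. For Kiss1 no row was matched, so it is not reported.

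Among the 11 suprachiasmatic and other peptides, 6 passed the filter on low counts, of which 4 were called higher and 2 lower, with a median log2 difference of 1.51. Vip, made in the suprachiasmatic clock nucleus and in cortical interneurons, had 8.49 and 16.6 CPM in hypothalamus and 67.2, 61.7, 51.8 and 67.5 CPM in prefrontal cortex (log2 difference -2.40 ± 0.20). Grp, the gastrin-releasing peptide gene, was also lower, at 4.56 and 3.73 against 17.3 to 19.6 CPM. Npvf, of the dorsomedial nucleus, had 9.40 and 7.97 CPM in hypothalamus and 1 count in all prefrontal cortex libraries together, a pooled ratio of 375-fold (95% counting interval 66.7 to 14844). Adcyap1 and Penk, which are expressed widely in brain, had 118 and 139 against 28.6 to 43.5 CPM and 113 and 89.1 against 38.1 to 52.2 CPM, both higher in hypothalamus without overlap. Of the 5 members under the filter, Nms, Ucn3 and Nmu had 34, 59 and 18 counts in hypothalamus and 0 in prefrontal cortex, and Npw and Npb had 2 and 10 counts in hypothalamus and 23 and 9 in prefrontal cortex.

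**Figure D2:**
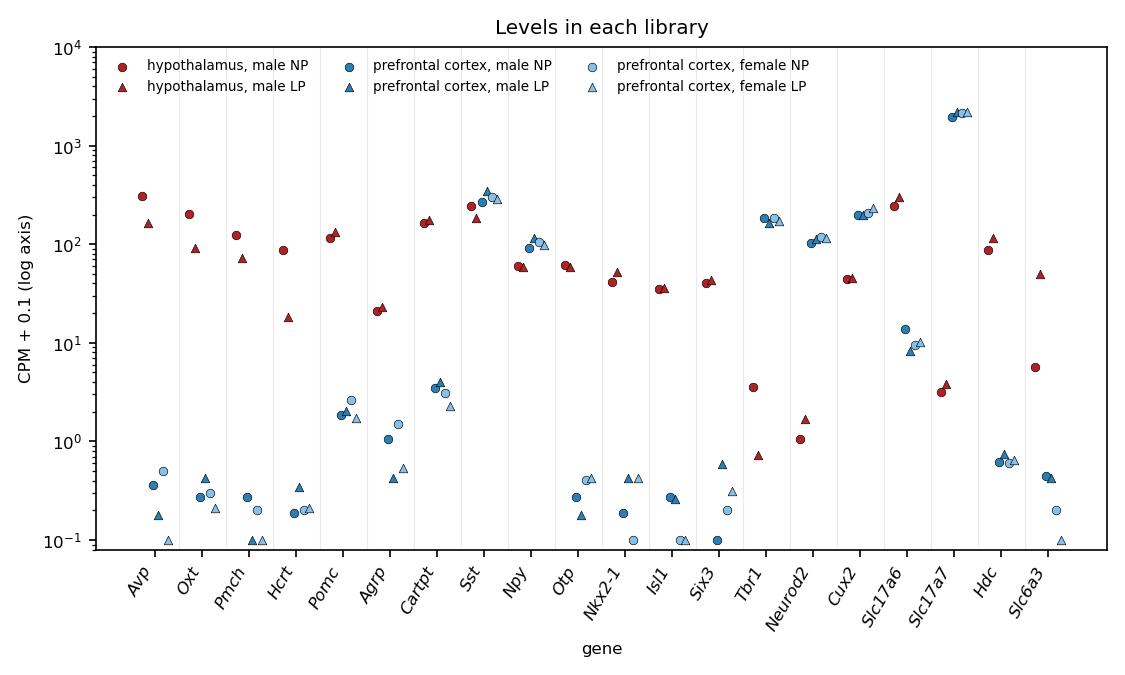
Level of 20 genes in each of the 6 libraries, as CPM plus 0.1 on a log axis, with colour for region and sex and symbol for diet. Peptide genes and factors such as Otp and Isl1 separate the hypothalamus libraries upwards, Sst and Npy lie close together in both regions, and Hcrt, Tbr1 and Slc6a3 show the largest gaps between the hypothalamus libraries among the genes drawn.

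Peptides shared with cortical interneurons were examined with a list of 15 interneuron genes. Of these, 2 were called higher, 11 lower and 2 were not called, with a median log2 difference of -1.53. Cck, which encodes cholecystokinin and is made by interneurons and many projection neurons, had 12.8 and 13.8 CPM against 359, 373, 399 and 401 CPM (log2 difference -4.78 ± 0.08). Lamp5, a marker of neurogliaform interneurons and superficial cortex, had 15 and 14.3 against 232 to 260.2 CPM (log2 difference -4.10 ± 0.08). Pvalb, the calcium buffer of fast-spiking basket cells, had 15.8 and 20.3 against 56.8 to 65.6 CPM. Cck and Lamp5 stood out by size, with levels in every prefrontal cortex library far above those in hypothalamus. Calb2, which encodes calretinin, went the other way with 281 and 229 CPM against 18.2, 24.9, 21.2 and 18.4 CPM (log2 difference 3.55 ± 0.15), and Tac1 was the other gene called higher. Lhx6, a factor of interneurons born in the medial ganglionic eminence, had 12.1 and 3.41 CPM in the NP and LP hypothalamus libraries against 22.4 to 27.8 CPM and so was uneven within hypothalamus.

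The hypothalamic transcription factors were higher in hypothalamus with few exceptions. Of 30 members, 29 passed the filter, 25 were called higher, 2 lower and 2 were not called, with a median log2 difference of 6.17. That median was 6.14 with the 2 genes at 0 counts in prefrontal cortex (Nkx2-4 and Hmx2) set at the bound that a count of 0 allows. Members at or near 0 counts there, among them also Lhx1, Six6, Sim1 and Foxb1, passed the filter through hypothalamus alone. The direction of their calls was thus set by the filter, and the count of 25 depends on it. Nkx2-1, which patterns the ventral hypothalamus, had 41.2 and 51.6 CPM against 0.0873, 0.323, 0 and 0.326 CPM (log2 difference 7.73 ± 0.30, from 7.13 without Hyp male NP to 9.35 without Hyp male LP). Isl1, needed for arcuate Pomc neurons, had 34.9 and 35.6 CPM against 0 to 0.175 CPM (log2 difference 7.63 ± 0.27), and Six3, a forebrain and eye field factor, 40.7 and 43.2 CPM against 0 to 0.485 CPM (log2 difference 7.33 ± 0.31, from 6.43 without PFC male NP to 12.02 without PFC male LP). Fezf1 and Nr5a1, factors of the ventromedial nucleus, had 27.6 and 34.6 against 0.0873 to 0.243 CPM and 19.6 and 24.6 against 0.0873 to 0.503 CPM. Each of these lay at or near the limit of detection in prefrontal cortex and did not overlap between regions.

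Several factors were present at 1 to 3 counts over all prefrontal cortex libraries, and for these the ratio of summed levels is given with its counting interval. For Lhx1, of the suprachiasmatic nucleus, the levels were 12.7 and 18.3 CPM and the pooled ratio was 220.1-fold (95% counting interval 74.9 to 1071). Six6, a partner of the same nucleus, had 12.2 and 16 CPM and a ratio of 601-fold (95% counting interval 107 to 23791). Sim1, needed for paraventricular neurons together with Otp, had 10.3 and 10.4 CPM and a ratio of 445-fold (95% counting interval 79.4 to 17640.1). The intervals are wide because they rest on a handful of prefrontal cortex counts. Foxb1, of the mammillary body, had 13 and 20.4 CPM and a ratio of 236-fold (95% counting interval 80.3 to 1148). Nkx2-4, with 179 counts in hypothalamus and 0 in prefrontal cortex, was at least 76.8-fold higher, taking 3 counts over the prefrontal cortex group as the bound, and Hmx2 at least 33.9-fold higher. With DESeq2 the calls of Nkx2-4 and Hmx2 were lost.

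Smaller or opposite differences were seen for several other factors of this list. Meis2 had 10.8 and 3.10 CPM in the NP and LP hypothalamus libraries and 97.5, 103, 96.1 and 95.4 CPM in prefrontal cortex (log2 difference -3.84 ± 0.29, from -5.03 without Hyp male NP to -3.19 without Hyp male LP), and Dlx1, an interneuron factor, 34.4 and 26.9 against 42.4 to 52.9 CPM (log2 difference -0.70 ± 0.13), so both were lower in hypothalamus. Dlx2 and Lhx9 overlapped between regions, at 11.8 and 9.29 against 6.09 to 9.87 CPM and 4.22 and 2.28 against 2.27 to 3.22 CPM, and were not called. Tbx3, of the arcuate nucleus, had 21.6 and 28.3 against 3.72 to 8.48 CPM, and Zic1 39.4 and 39.1 against 13.3 to 18.7 CPM, both called higher at a few-fold. Lhx8 was left untested by the filter, with 65 and 2 counts in the NP and LP hypothalamus libraries and 2 counts over prefrontal cortex, so nearly all its counts came from a single library.

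Neocortical transcription factors formed the counterpart. Of 26 members, 21 were called lower in hypothalamus, 3 higher and 2 were not called, with a median log2 difference of -2.59. Neurod6 and Neurod2, basic helix-loop-helix factors of projection neurons, had 1.14 and 1.71 against 116, 134, 127 and 129.6 CPM and 0.969 and 1.58 against 102, 114, 118 and 116 CPM. The log2 differences were -6.45 ± 0.14 and -6.41 ± 0.15, respectively. Tbr1, of deep-layer and early-born neurons, had 3.48 and 0.632 CPM in the NP and LP hypothalamus libraries and 186, 164, 183 and 173 CPM in prefrontal cortex (log2 difference -6.38 ± 0.26, from -8.03 without Hyp male NP to -5.72 without Hyp male LP). Emx1, which marks the dorsal telencephalon, had 0.114 and 0.379 CPM against 19.7, 19.6, 19.2 and 20.0 CPM (log2 difference -6.30 ± 0.28, from -7.30 without Hyp male LP to -5.67 without Hyp male NP). In all 4 genes the prefrontal cortex libraries agreed within a narrow range and the hypothalamus libraries were close to the limit of detection or a few CPM above it. Fezf2, of subcortical projection neurons, had 2.79 and 2.47 against 47.6 to 59.7 CPM. Mef2c, an activity-regulated factor of cortical neurons, had 24.5 and 27.9 against 547, 411, 570.2 and 491 CPM (log2 difference -4.18 ± 0.13).

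Members that did not follow were Rorb, Foxp2 and Nfe2l3, which were called higher in hypothalamus, and Cux1 and Tle4, which were not called. Rorb, a layer 4 factor that is also expressed in the suprachiasmatic nucleus and thalamus, had 30.9 and 37.4 against 21.3 to 27.4 CPM (log2 difference 0.58 ± 0.14). Foxp2, of layer 6 and many subcortical nuclei, had 11.6 and 13.1 against 3.64 to 5.11 CPM (log2 difference 1.52 ± 0.20), and Nfe2l3 5.13 and 3.48 against 1.85 to 3.23 CPM (log2 difference 0.71 ± 0.24). The call of Nfe2l3 was lost with DESeq2 (log2 0.72, adjusted p = 0.313), without Hyp male NP (log2 0.66, adjusted p = 0.114), without PFC male NP (log2 0.82, adjusted p = 0.0827) and without PFC male LP (log2 0.62, adjusted p = 0.121). Cux1 had 74.2 and 82.6 against 73.2 to 82.2 CPM and a log2 difference of 0.01 ± 0.08, in contrast to -2.13 ± 0.08 for its paralogue Cux2, the upper-layer marker. The levels of Cux1 overlapped between regions, while those of Cux2 did not overlap.

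Genes used to tell neocortical layers apart did not move as a block. Of 24 members, 12 were called higher in hypothalamus (50%), 8 lower (33.3%) and 4 were not called. Over all tested genes 29.5% were called higher and 28.3% lower. The median log2 difference of the list was 0.36, and with library totals 16 members were higher and 8 lower. Lamp5, Fezf2, Cplx3 and Nxph4 had the largest differences, the last of them in favour of hypothalamus. Cplx3, a complexin of subplate-derived cells, had 0.798 and 1.39 CPM against 14.9, 11.9, 12.1 and 12 CPM (log2 difference -3.62 ± 0.26). Nxph4, a neurexophilin gene used as a layer 6b marker, had 42.8 and 48.7 CPM against 1.75, 2.10, 1.11 and 0.978 CPM (log2 difference 4.56 ± 0.16). Nxph4 was thus at about 1 to 2 CPM in every prefrontal cortex library and above 40 CPM in both hypothalamus libraries. Many laminar markers are known from other brain areas as well.

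**Figure D3:**
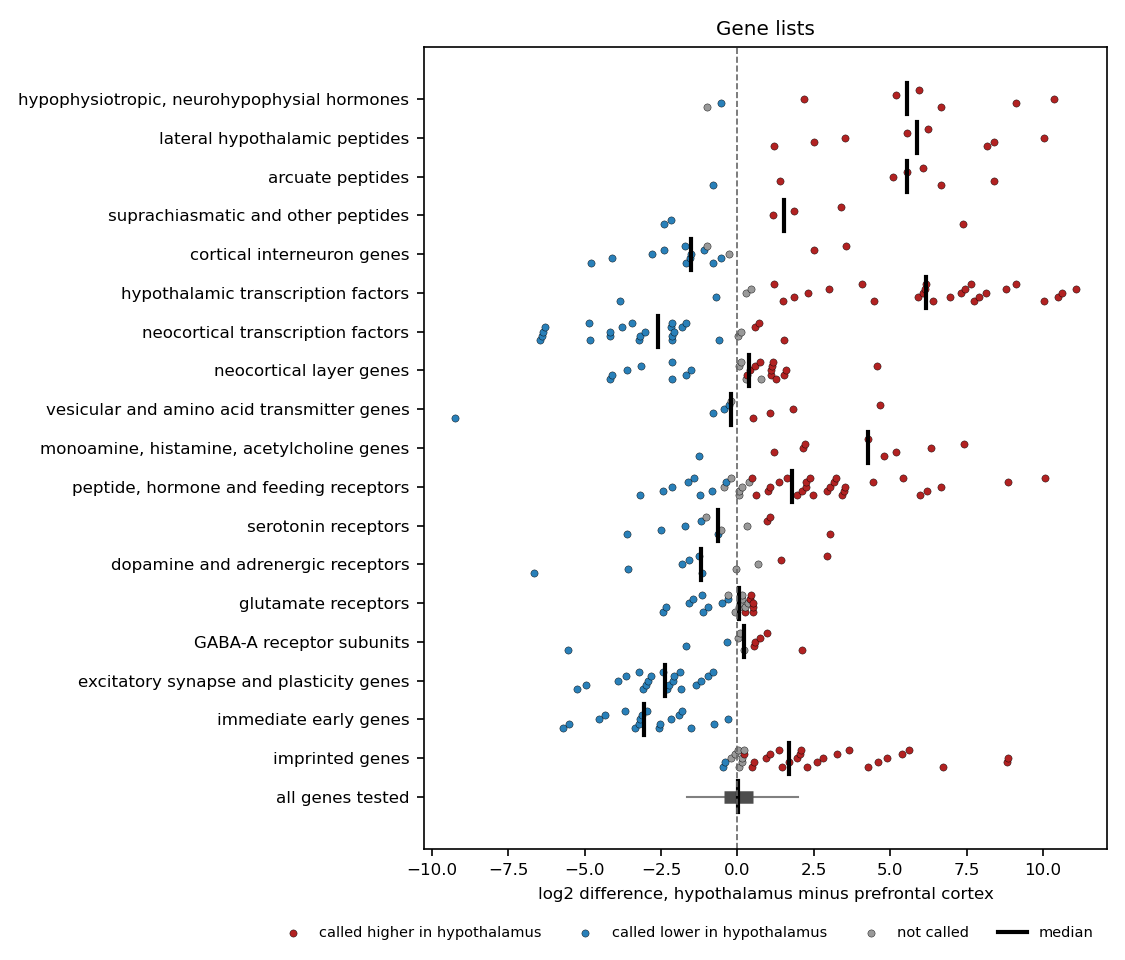
Log2 difference between hypothalamus and prefrontal cortex for the tested members of 18 gene lists (points, coloured by call, spread vertically for visibility) with each list's median as a bar, and in the bottom row the 5th to 95th percentiles, quartiles and median of all tested genes. The peptide and hypothalamic factor lists lie to the right, with medians of 5.54 to 6.17 except for the suprachiasmatic list, and the excitatory synapse and immediate early gene lists lie wholly to the left.

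The machinery for amino acid transmitters was split by gene rather than by region. Of 10 members 9 passed the filter, 4 were called higher and 4 lower (44.4% each), beside 29.5% and 28.3% of all tested genes. Their median log2 difference was -0.21 and became 0.04 with library totals as the scale. The vesicular glutamate transporters changed places. Slc17a7 had a log2 difference of -9.24 ± 0.10 (adjusted p = 7.21e-11), and Slc17a6 had 246 and 304 CPM in hypothalamus and 13.7, 8.17, 9.36 and 10.00 CPM in prefrontal cortex, a log2 difference of 4.66 ± 0.18 (adjusted p = 3.99e-08). Per kilobase of exon, Slc17a7 stood at 393 CPM in prefrontal cortex and 0.631 in hypothalamus, and Slc17a6 at 1.91 and 50.9. On that scale the leading transporter of prefrontal cortex had a higher level than the leading transporter of hypothalamus. Slc17a8, the third member of the family, was low in both regions, at 2.17 and 2.34 against 2.07 to 3.02 CPM, and was not called.

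The GABA genes differed less. Gad1 and Gad2 encode the enzymes that make GABA, and Gad1 had 339 and 298 CPM against 372, 392, 361 and 388 CPM (log2 difference -0.26 ± 0.08), whereas Gad2 had 321 and 244 CPM against 141, 125, 131 and 132 CPM (log2 difference 1.08 ± 0.09). Gad2 was higher in both hypothalamus libraries, while the call of Gad1 was lost with library totals (log2 -0.01, adjusted p = 0.925), without the filter on low counts (log2 -0.24, adjusted p = 0.0542), without Hyp male LP (log2 -0.13, adjusted p = 0.175) and without PFC male LP (log2 -0.21, adjusted p = 0.107). Slc32a1, the vesicular GABA transporter, had 139.7 and 93.7 against 77.2 to 86.3 CPM (log2 difference 0.53 ± 0.15), and its call was lost with DESeq2 (log2 0.52, adjusted p = 0.124), without Hyp male NP (log2 0.17, adjusted p = 0.123) and without PFC male NP (log2 0.31, adjusted p = 0.166). Slc6a11, a GABA uptake transporter, was higher in hypothalamus, with 840.4 and 866 against 236, 246, 239.7 and 213 CPM (log2 difference 1.82 ± 0.07).

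Genes for monoamine, histamine and acetylcholine synthesis and transport were mostly higher in hypothalamus. Of 12 members 9 passed the filter, 8 were called higher and 1 lower, with a median log2 difference of 4.26. Without PFC male NP 5 were called higher and 0 lower, and with library totals 8 and 0. Hdc, which makes histamine in the tuberomammillary nucleus, had 87.4 and 114 CPM against 0.524, 0.647, 0.503 and 0.543 CPM (log2 difference 7.41 ± 0.17, adjusted p = 1.78e-09). Ddc, the decarboxylase of dopamine and serotonin synthesis, had 59.8 and 82.6 against 3.32 to 4.13 CPM, and Slc18a2, the vesicular monoamine transporter, 58.4 and 90.1 against 1.78 to 4.33 CPM. These genes and Th were high in both hypothalamus libraries. Slc6a3, the dopamine transporter, had 5.53 and 49.2 CPM in the NP and LP hypothalamus libraries against 0.349, 0.323, 0.101 and 0 CPM (log2 difference 6.32 ± 0.46, from 3.81 without Hyp male LP to 7.35 without Hyp male NP), so the LP library was far above the NP library. Tph2, the enzyme of serotonin neurons, was near the limit of detection everywhere at 0.342 and 0.316 against 0.647 to 1.09 CPM, and was called lower by a small margin (adjusted p = 0.0482), a call that was lost in each of the 6 fits that leave out 1 library. Chat, which makes acetylcholine, was sparse at 2.73 and 1.07 against 0.302 to 0.543 CPM, and it was called higher (log2 difference 2.14 ± 0.47, from 1.34 without Hyp male NP to 2.67 without Hyp male LP) but not with DESeq2 (log2 2.11, adjusted p = 0.0937), without Hyp male NP (log2 1.34, adjusted p = 0.0684) and without PFC male NP (log2 1.89, adjusted p = 0.0627).

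Receptors for peptides and hormones differed in both directions. Of 41 members 40 passed the filter, 26 were called higher in hypothalamus, 8 lower and 6 were not called, with a median log2 difference of 1.8. Calcr, the calcitonin and amylin receptor, had 45 and 42.3 CPM in hypothalamus and 0, 0.162, 0.101 and 0.109 CPM in prefrontal cortex (log2 difference 8.86 ± 0.31, from 7.93 without PFC male NP to 12.17 without PFC male LP). Ghsr, the ghrelin receptor, had 9.06 and 11.7 CPM in hypothalamus and 1 count over all prefrontal cortex libraries, a pooled ratio of 443-fold (95% counting interval 78.9 to 17538). Prlr, the prolactin receptor, had 28.3 and 24.8 against 0.109 to 0.302 CPM (log2 difference 6.66 ± 0.27). These receptors of circulating signals were present in both hypothalamus libraries and close to absent in all prefrontal cortex libraries. The melanocortin receptors Mc3r and Mc4r had 12.8 and 14.9 against 0 to 0.404 CPM and 5.13 and 6.13 against 1.92 to 3.48 CPM, so that Mc3r differed more (log2 5.98 ± 0.41, from 5.14 without PFC male NP to 10.36 without PFC male LP) than Mc4r (log2 1.05 ± 0.25), whose call was lost with DESeq2 (log2 1.08, adjusted p = 0.0776) and without PFC male NP (log2 0.75, adjusted p = 0.0585). Lepr, the leptin receptor, had 6.84 and 14.4 against 1.54 to 2.88 CPM and was called higher, with the LP library above the NP library.

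Within families of receptors the members differed. The orexin receptors Hcrtr1 and Hcrtr2 had log2 differences of 1.63 ± 0.24 and 3.42 ± 0.26, and the neuropeptide Y receptor gene Npy2r one of 3.18 ± 0.16. Cckar, a cholecystokinin receptor, had 8.60 and 6.64 against 0 to 0.175 CPM, but its relative Cckbr had 13.9 and 13.7 against 118, 133, 129.8 and 141 CPM (log2 difference -3.17 ± 0.09). So the A receptor was higher and the B receptor lower in hypothalamus, each without overlap. Crhr2 and Crhr1, the receptors of corticotropin-releasing hormone, went apart likewise, with 8.66 and 8.09 against 0.786 to 2.67 CPM (log2 difference 2.26 ± 0.33, from 1.62 without PFC male NP to 3.40 without PFC male LP) and 9.46 and 10.6 against 51.7 to 62.2 CPM (log2 difference -2.43 ± 0.10). Of the opioid receptors, Oprk1 (log2 2.93 ± 0.16) was higher and Oprd1 (log2 -2.14 ± 0.17) lower. Somatostatin receptors Sstr2, Sstr3 and Sstr4 were lower, with log2 differences of -1.23 ± 0.10, -1.62 ± 0.12 and -1.41 ± 0.23. Of the steroid receptors, Esr1, the estrogen receptor alpha gene, had 19.6 and 21.2 against 2.88, 4.37, 3.42 and 4.24 CPM (log2 difference 2.49 ± 0.17), and Pgr, the progesterone receptor gene, overlapped at 26.8 and 32.8 against 20.4 to 32.1 CPM and was not called. Ghr, the growth hormone receptor gene, was higher (log2 difference 2.10 ± 0.16).

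Receptors for serotonin, dopamine and noradrenaline also differed in both directions. Of 11 tested serotonin receptors 3 were called higher in hypothalamus and 5 lower, beside 29.5% and 28.3% of all tested genes, with a median log2 difference of -0.64, and with library totals 4 were higher and 5 lower. Htr3a, the ion channel form, had 0.684 and 0.569 CPM against 8.12, 7.36, 6.54 and 6.30 CPM (log2 difference -3.60 ± 0.27), whereas Htr1d, an autoreceptor, had 2.45 and 3.73 against 0.0873 to 0.647 CPM (log2 difference 3.01 ± 0.47, from 2.44 without PFC male NP to 4.73 without PFC male LP). Htr7 and Htr2a did not pass the test, with log2 differences of 0.32 ± 0.13 and -0.54 ± 0.23. Among 10 tested dopamine and adrenergic receptors 2 were higher and 6 lower, with a median of -1.20. Adra1d, an alpha-1 adrenergic receptor, had 0.342 and 0.316 CPM against 37.2, 31.6, 35.9 and 37.9 CPM (log2 difference -6.66 ± 0.23, adjusted p = 1.88e-08), while its relatives Adra1a and Adra1b had log2 differences of -1.25 ± 0.17 and -1.60 ± 0.10. Adra1d was thus close to the limit of detection in both hypothalamus libraries, unlike the other members of its subfamily. Adrb1, the beta-1 receptor, had 4.90 and 3.98 against 46.7 to 54.7 CPM (log2 difference -3.58 ± 0.14). Drd2 and Adra2a, which can act as autoreceptors, were the members called higher, with 10.3 and 11.6 against 1.31 to 2.11 CPM and 38.6 and 44.8 against 11.9 to 18.5 CPM, and Drd1 was lower at 3.42 and 4.49 against 13.7 to 17.1 CPM.

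Subunits of the fast transmitter receptors differed one by one. Of 23 tested glutamate receptors 6 were called higher in hypothalamus and 9 lower (26.1% and 39.1%), with a median log2 difference of 0.04. Over all tested genes 29.5% were called higher and 28.3% lower. With library totals 12 of the glutamate receptors were higher and 8 lower. No higher call reached 2-fold, against 6 of the lower ones. Grin2a and Grin2b, modulatory subunits of the NMDA receptor, had 24.6 and 25.3 against 144, 110.4, 141 and 132 CPM and 80.7 and 87.9 against 257, 204, 269.7 and 238 CPM (log2 differences -2.34 ± 0.11 and -1.44 ± 0.10), and the obligatory subunit Grin1 had a log2 difference of -1.15 ± 0.07. Grm3, a group II metabotropic receptor, had 12.6 and 12.5 against 67 to 71.6 CPM (log2 difference -2.42 ± 0.09). These 3 NMDA subunits and Grm3 were higher in every prefrontal cortex library. Of the other NMDA subunits, Grin2c was lower (log2 difference -1.57 ± 0.10), Grin2d was not called (log2 difference 0.26 ± 0.14), and Grin3a was called higher (log2 difference 0.24 ± 0.09), a call that was lost with DESeq2 (adjusted p = 0.169), RLE factors (adjusted p = 0.0515) and no filter (adjusted p = 0.0745), in males alone and in 4 of the 6 fits that leave out 1 library. The call of Grin2d was gained with library totals (adjusted p = 0.0119) and without Hyp male LP (adjusted p = 0.00544). The AMPA subunit Gria1 did not pass the test, with a log2 difference of 0.16 ± 0.06. Of 11 GABA-A receptor subunits 5 were higher and 3 lower, with a median of 0.20, and with library totals 7 were higher and 2 lower. Gabrd, the delta subunit of extrasynaptic receptors, had 1.99 and 1.33 CPM against 73.4, 83.9, 82 and 82.6 CPM (log2 difference -5.54 ± 0.16, adjusted p = 6.24e-09). Gabrg1 went the other way, with 85.6 and 81.7 against 20.9, 17.5, 18 and 17.1 CPM (log2 difference 2.13 ± 0.10), and Gabra5 overlapped between regions at 53.1 and 55.6 against 51.4 to 56.1 CPM. Gabra4, which can pair with delta in forebrain, was lower (log2 difference -1.67 ± 0.09), by far less than Gabrd.

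The excitatory synapse and plasticity genes were lower in hypothalamus without exception. All 20 were called lower, 18 of them by at least 2-fold, with a median log2 difference of -2.38, beside 28.3% of all tested genes called lower. The members of this list, like those of the other lists, were chosen with earlier results of these data known. A count without exception therefore describes the chosen members and is not independent support. The direction was the same with library totals, RLE factors and DESeq2, where 20 of 20 were also lower. Ddn, which encodes the dendritic protein dendrin, had 51.8 and 49.6 CPM against 1863, 1981, 1838 and 1762 CPM (log2 difference -5.24 ± 0.08, adjusted p = 4.97e-10). Itpka, a dendritic spine kinase, had 6.27 and 6.32 against 186, 208, 228 and 237 CPM (log2 difference -4.97 ± 0.09). Nrgn, the calmodulin-binding protein neurogranin, had 117 and 116 against 1686, 1818, 1878 and 1821 CPM, and Camk2a, the alpha subunit of the calcium/calmodulin kinase, 455 and 473 against 5774, 5932, 5587 and 5773 CPM. Their log2 differences were -3.91 ± 0.07 and -3.66 ± 0.06. The hypothalamus libraries agreed closely in each of these genes, and all lay far below the lowest prefrontal cortex library.

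Immediate early genes, which neurons switch on within minutes of activity, were also lower throughout. All 18 were called lower and 16 by at least 2-fold, with a median log2 difference of -3.05, and DESeq2 and library totals each called 17 of 18. Arc, a synaptic plasticity gene, had 28.3 and 27.7 CPM in hypothalamus and 1170.2, 1426, 486 and 1147 CPM in prefrontal cortex (log2 difference -5.52 ± 0.26). Egr3, a zinc finger factor, had 2.11 and 2.91 CPM against 116, 145, 84.5 and 184 CPM (log2 difference -5.72 ± 0.23), and its relatives Egr4 and Egr2 had log2 differences of -4.52 ± 0.17 and -4.32 ± 0.18. The prefrontal cortex libraries were uneven here, with the female NP library the lowest for Arc and Egr3, yet even that library lay well above both hypothalamus libraries. Summed over the list, levels were 494 and 627 CPM in hypothalamus and 2451 to 5256 CPM in prefrontal cortex.

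Imprinted genes are expressed wholly or mainly from the maternal or the paternal copy, in at least some tissues. The counts used here do not separate the copies. Of 33 members, 24 were called higher, 20 of them by at least 2-fold, 2 were called lower and 7 were not called, with a median log2 difference of 1.69, beside 29.5% of all tested genes called higher. Their summed level was 14224 and 14396 CPM in the hypothalamus libraries and 6636 to 7034 CPM in prefrontal cortex. The leading members were Calcr, given above, and Dlk1, Asb4 and Magel2. Dlk1, a Notch-pathway transmembrane protein, had 412 and 390.5 CPM against 0.699, 1.05, 1.51 and 0.978 CPM (log2 difference 8.81 ± 0.14, adjusted p = 4.98e-10). Asb4, a suppressor-of-cytokine-signalling box gene of arcuate neurons, had 57.7 and 68.8 against 0.437, 0.728, 0 and 0.543 CPM (log2 difference 6.73 ± 0.25, from 6.33 without Hyp male NP to 7.48 without Hyp male LP), and Magel2, of the Prader-Willi region, 113 and 121 against 1.83, 2.91, 1.61 and 1.74 CPM (log2 difference 5.61 ± 0.14). Each was high in both hypothalamus libraries and near the limit of detection, or below 3 CPM, in prefrontal cortex.

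Neighbours within imprinted regions did not share the same difference, and further members are named here for their position, chosen after their values were seen. Coordinates are from GENCODE M21 on GRCm38, the assembly of mm10. On chromosome 12, Dlk1 (chr12:109452823-109463336) had a log2 difference of 8.81, but the maternally expressed RNAs Meg3 (chr12:109541001-109571726), Rian (chr12:109603940-109661716) and Mirg (chr12:109729764-109749460) downstream had differences of 0.20 ± 0.06, 0.03 ± 0.06 and 0.21 ± 0.11. Meg3 itself was abundant in both regions, at 3484 and 3253 against 2819.5, 3037, 2772 and 2843 CPM, and its call was lost in males alone (log2 0.20, adjusted p = 0.127), without Hyp male NP (log2 0.11, adjusted p = 0.172), without PFC male NP (log2 0.11, adjusted p = 0.21), without PFC female NP (log2 0.20, adjusted p = 0.125) and without PFC female LP (log2 0.20, adjusted p = 0.128). Rian and Mirg were not called, although both were with library totals. In the Prader-Willi region of chromosome 7, Magel2 (chr7:62377010-62381640) and Ndn (chr7:62346569-62350262) were higher in hypothalamus, with log2 differences of 5.61 and 2.06 ± 0.08, whereas Snrpn (chr7:59982495-60140219) was lower at -0.39 ± 0.07, a call that was lost with library totals (log2 -0.14, adjusted p = 0.107). Ube3a (chr7:59228750-59311536) was higher at 1.45 ± 0.09, although an antisense transcript overlaps it and the strand setting of the counts is not given. On proximal chromosome 6, Calcr (chr6:3685680-3764714), Peg10 (chr6:4747306-4760517) and Asb4 (chr6:5383386-5433022) were all higher (log2 8.86, 4.60 ± 0.10 and 6.73), while Sgce (chr6:4674350-4747207), whose start lies next to that of Peg10 on the other strand, differed by 0.48 ± 0.12, a call that was lost without Hyp male LP (log2 0.30, adjusted p = 0.0608) and without PFC male LP (log2 0.29, adjusted p = 0.131).

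In some other imprinted neighbourhoods all listed members were called higher, though at unlike sizes. Zim1 (chr7:6671269-6696450), Peg3 (chr7:6703892-6730431) and Usp29 (chr7:6730578-6967219) on chromosome 7 were all called higher, with log2 differences of 4.89 ± 0.15, 2.60 ± 0.08 and 2.80 ± 0.10. Peg3, a zinc finger gene expressed from the paternal copy, had 1209.9 and 1196 CPM against 219, 180.3, 238 and 208 CPM. Ddc (chr11:11814101-11898144) and Grb10 (chr11:11930508-12038683) on chromosome 11 were both higher (log2 4.26 and 1.96 ± 0.08). Nnat (chr2:157560078-157562522), which lies inside the Blcap gene (chr2:157556362-157571274) on chromosome 2, had 1081 and 1162 against 78.7, 102, 87.9 and 109 CPM, and their log2 differences were 3.64 ± 0.08 and 1.07 ± 0.09. Because these genes overlap and the strand setting is not given, reads of the pair may not be fully separated. By contrast Kcnk9, Trappc9 and Peg13 on chromosome 15 were not called, with log2 differences of -0.22 ± 0.13, 0.14 ± 0.07 and 0.04 ± 0.06, while with library totals Trappc9 and Peg13 were called higher and Kcnk9 changed sign to 0.034. On distal chromosome 7, Igf2 (chr7:142650766-142666816) and H19 (chr7:142575529-142578143) were higher (log2 3.25 ± 0.24 and 5.40 ± 0.46). Cdkn1c, of the same neighbourhood, was not called (log2 difference -0.09). Igf2, a growth factor gene expressed in meninges and vessels, had 471 and 867 CPM in the NP and LP hypothalamus libraries, an order it shared with the meningeal genes described next.

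**Figure D4:**
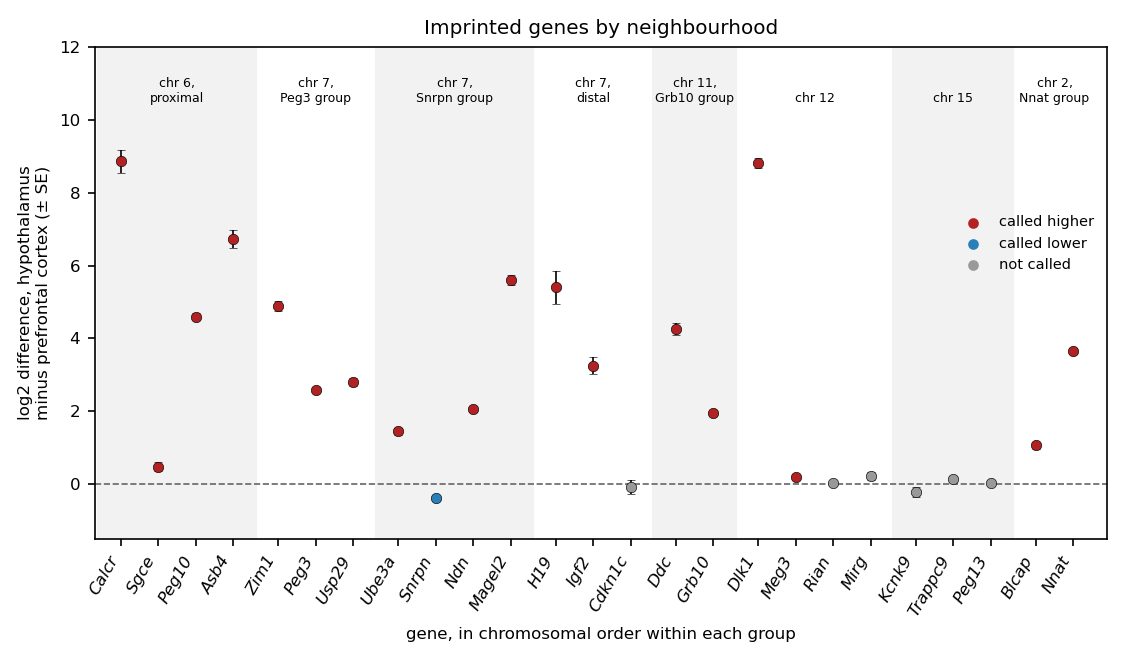
Log2 difference between hypothalamus and prefrontal cortex (points, with the approximate standard error as bars) for 25 imprinted genes grouped by neighbourhood and coloured by call. The bars can be far too short for genes with few counts in a region, such as Calcr. Dlk1 stands far above its downstream neighbours Meg3, Rian and Mirg, Snrpn lies below 0 beside Ndn and Magel2, and the chromosome 15 genes lie near 0.

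Markers of glia, vessels and neighbouring tissues were measured beside these results, since a dissected block holds them too. The 15 of 18 oligodendrocyte genes called were all higher in hypothalamus, with a median log2 difference of 0.79 and summed levels of 3547 to 4761 against 1706 to 2789 CPM. Ermn and Mobp, a cytoskeletal and a myelin protein gene, had 35.5 and 27.1 against 12.3, 5.66, 9.76 and 6.63 CPM and 819 and 538 against 371, 219, 232 and 194 CPM, both higher in each hypothalamus library than in any prefrontal cortex library. The lineage factor Olig1 was not called, at 141 and 112 against 97.4 to 122 CPM. All 12 microglial genes were called lower, with a median of -0.92, and Cx3cr1, the fractalkine receptor gene, had 30.8 and 32 against 76.3, 68.8, 65.1 and 63.6 CPM. Astrocyte genes were split, 6 higher and 5 lower (37.5% and 31.25%), beside 29.5% and 28.3% of all tested genes. Their median was 0.04, and with library totals 10 were higher and 3 lower. Agt, which encodes angiotensinogen, had 202 and 172 CPM against 2.88, 2.99, 4.63 and 3.26 CPM (log2 difference 5.98 ± 0.12), Itih3 441 and 362 against 69.7, 52.6, 55.7 and 52.4 CPM and Gfap, the intermediate filament gene, 585 and 603 against 194, 113, 128 and 144 CPM. The glutamate transporter gene Slc1a2 was lower at 933 and 1046 against 2920.5, 2230.3, 2626 and 2578 CPM, as was Mfge8 (log2 difference -1.74 ± 0.07). So astrocyte genes differed in both directions, at shares not far from those of all tested genes. Acta2, Gh, Foxj1, Dio2, Slc1a2, Ttr, Pou1f1 and Gbx2 are named here after their values were seen.

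Tanycytes and ependymal cells line the third ventricle, and 8 of their 11 tested genes were called higher, 2 lower, with a median log2 difference of 1.93. Ccdc153, a ciliary gene, had 11.4 and 6.76 CPM against 0.175, 0, 0.403 and 0.109 CPM, and Foxj1, the master factor of motile cilia, 25.5 and 27.7 against 2.31 to 3.80 CPM. Rax, the tanycyte factor, had 2.73 and 2.78 CPM in hypothalamus and 2 counts over prefrontal cortex. Crym and Dio2, which cortical cells also express, were lower, with 10.7 and 11.2 against 87.5 to 109 CPM and 14.8 and 22.9 against 78.9 to 127 CPM. Choroid plexus genes were called higher in 6 of 8 tested cases and lower in 1 (6 and 0 with library totals, 4 and 1 with DESeq2). Ttr, the defining gene of that tissue, was at 3.36 and 2.47 against 0.705 to 1.31 CPM, its call was lost with DESeq2 (log2 1.54, adjusted p = 0.0946), and the summed list was at 180.4 to 194 against 154 to 188 CPM.

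Mural and meningeal genes differed between the hypothalamus libraries as well as between regions. Of 14 members 10 were called higher and 2 lower (10 and 0 without Hyp male NP and with library totals), with a median log2 difference of 2.11, and their summed level was 3308 CPM in the NP and 6195 CPM in the LP hypothalamus library against 647 to 1302 CPM in prefrontal cortex. Dcn, a proteoglycan of fibroblasts, had 42 and 80.5 CPM against 7.51, 3.96, 8.76 and 7.28 CPM (log2 difference 3.39 ± 0.32, from 2.60 without PFC male LP to 4.23 without PFC male NP), and Ptgds, a prostaglandin synthase of meninges and oligodendrocytes, 2498 and 4607 CPM against 719, 391, 716 and 982 CPM. The LP library was the higher hypothalamus library for each of these, for Igf2 and for Acta2. Endothelial genes did not share this difference, with 1 of 12 called higher and 5 lower (8.33% and 41.7%), beside 29.5% and 28.3% of all tested genes. Their median was -0.27, which was -0.01 with library totals. Without Hyp male LP 0 were higher and 10 lower, and without Hyp male NP 3 and 4. Vwf, the von Willebrand factor gene, was the member called higher, at 19.5 and 51.5 CPM against 20.2, 23.5, 18.3 and 22.3 CPM (log2 difference 0.62 ± 0.24, from -0.03 without Hyp male LP to 1.12 without Hyp male NP). The NP hypothalamus library lay within the prefrontal cortex range, and the call was lost with DESeq2 (log2 0.58, adjusted p = 0.336), with edgeR's earlier quasi-likelihood method (log2 0.60, adjusted p = 0.0549), without the filter on low counts (log2 0.66, adjusted p = 0.104), in males alone (log2 0.59, adjusted p = 0.067), without Hyp male LP (log2 -0.03, adjusted p = 0.867), without PFC male LP (log2 0.19, adjusted p = 0.606), without PFC female NP (log2 0.59, adjusted p = 0.0655) and without PFC female LP (log2 0.59, adjusted p = 0.065).

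Pituitary genes were present in hypothalamus libraries at low levels. All 6 tested members were called higher, beside 29.5% of all tested genes. Cga and Fshb, with 1 count each over prefrontal cortex, passed the filter on low counts through hypothalamus alone. Lhb and Pou1f1 did not pass, so the count of 6 depends on the filter. The list summed to 159 to 227 CPM against 3.12 to 7.51 CPM, of which Pomc, also a hypothalamic gene, made up 117 and 132 CPM. Gh had 79.9 and 14.3 CPM in the NP and LP hypothalamus libraries and 4.80, 2.35, 0.101 and 0.652 CPM in prefrontal cortex, and Prl 19.1 and 1.01 CPM against 0.437, 0.162, 0 and 0.87 CPM. The call of Prl was lost with DESeq2 (log2 4.81, adjusted p = 0.11), without Hyp male NP (log2 1.35, adjusted p = 0.0764) and without PFC male NP (log2 3.13, adjusted p = 0.291). Cga, the shared glycoprotein hormone subunit, had 7.63 and 6.07 CPM in hypothalamus and 1 count over prefrontal cortex, while the pituitary factor gene Pou1f1 had 2 counts in hypothalamus and 2 in prefrontal cortex. Hence Gh and Prl followed the NP library and meningeal genes the LP library, and the part of either tissue in the regional differences was not tested.

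Neighbouring forebrain regions were read with lists for thalamus, striatum and olfactory bulb. Of 9 tested thalamic genes 7 were called higher, with a median log2 difference of 1.09, and Zfhx3, which is also a factor of the suprachiasmatic nucleus, led after Slc17a6 with 41.5 and 42.4 against 4.89, 3.96, 4.93 and 4.35 CPM, both hypothalamus libraries lying above all prefrontal cortex libraries. Gbx2, a defining thalamic factor, had 14 counts in hypothalamus and 1 in prefrontal cortex and was not tested. Striatal genes were split, 5 higher and 4 lower (41.7% and 33.3%), beside 29.5% and 28.3% of all tested genes. Their median was 0.12, with summed levels of 333 to 357 against 321 to 337 CPM. Of 7 tested olfactory bulb genes 2 were higher, namely Th and Calb2, and 2 lower, shares near those of all tested genes. None of the 13 Hox genes of hindbrain and spinal cord passed the filter, with sums of 0.443 to 0.741 CPM in hypothalamus. The 4 tested blood genes, all haemoglobins, some with near-identical copies that can share reads, were all called higher with a median log2 difference of 0.62, and their summed level was 1924 and 1312 CPM in the NP and LP hypothalamus libraries against 698 to 1352 CPM.

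**Figure D5:**
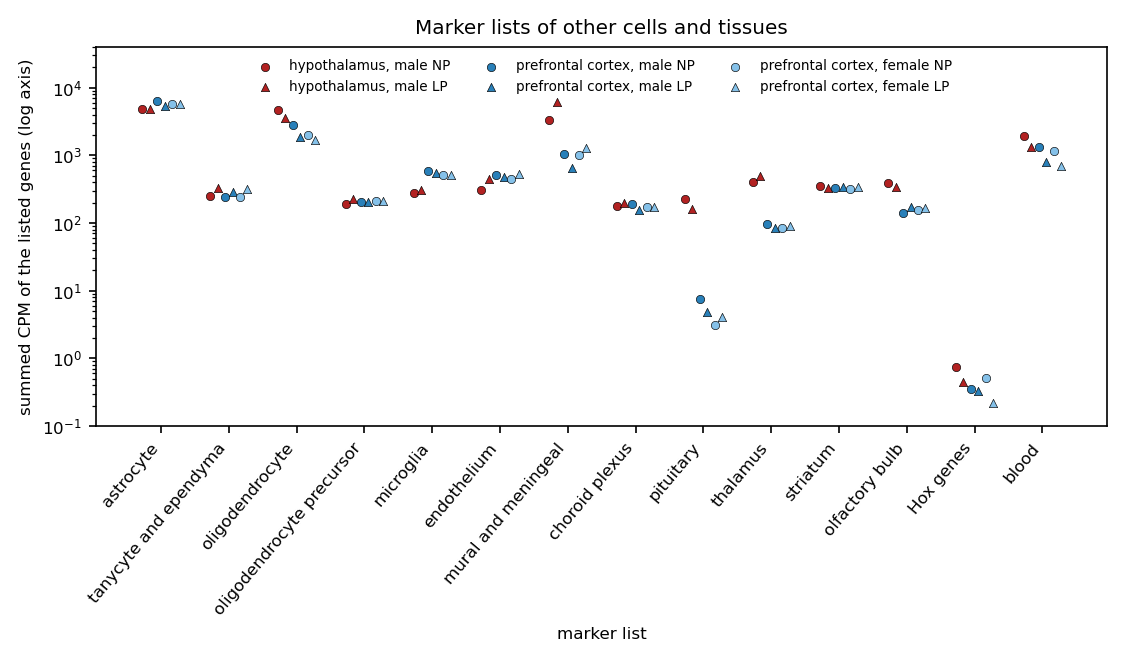
Summed level of each marker list in each of the 6 libraries, in CPM on a log axis, with colour for region and sex and symbol for diet. Oligodendrocyte, mural and meningeal, pituitary, thalamic and olfactory bulb sums are higher in both hypothalamus libraries, and microglial and astrocyte sums are lower. Calb2 makes up most of the olfactory bulb sum in hypothalamus, and Slc17a6 most of the thalamic sum. Ptgds makes up most of the mural and meningeal sum. Without Slc1a2 the astrocyte sum would be higher in both hypothalamus libraries. The Hox list is below 1 CPM in all libraries.

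The region difference was also read within each diet, as the log2 ratio of the male hypothalamus library to the male prefrontal cortex library with a prior count of 2, where 1 library stands against 1 and no test is possible. Of the 9604 called genes 9599 had the same sign in both ratios. The male libraries behind these ratios also made the calls, so this agreement in sign largely follows from the selection and is no replication. Over all 16637 tested genes the ratios correlated with Pearson r of 0.907, with a median absolute difference of 0.22. For Avp the ratios were 9.52 in NP and 9.42 in LP males, for Slc17a7 -9.23 and -9.13, and for Otp 7.55 and 7.93. Larger gaps were seen for Hcrt (8.47 and 5.53), Slc6a3 (3.49 and 6.68) and Tbr1 (-5.68 and -7.70), each following the uneven hypothalamus library. Vwf changed sign, at -0.05 and 1.13. The other genes named in this paragraph kept their sign in both diets, while their sizes differed between the ratios.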

How the data were processed

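Whole-tissue RNA sequencing was analysed from 2 hypothalamus and 4 prefrontal cortex libraries, and 4 columns of other libraries in the same table were not used here. Libraries were made with the TruSeq RNA kit from total RNA, per the labels' protocols. The authors deposited raw read counts per Ensembl gene. Per the submitters' processing notes, CASAVA, FastQC 0.10.1 and STAR 2.5.0a were used with mm10. Which tool counted the reads, with which strand setting and annotation release, is not given in the sources used here, so overlapping and antisense genes are uncertain. Of 47729 genes, 47310 were matched to GENCODE M21 on GRCm38, 419 unmatched ones were kept, and 4179 on X or Y were left out.

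Differences were fitted with edgeR 4.0.16 (R 4.3.3) by the quasi-likelihood F test with sex, diet and region as terms, leaving 2 residual degrees of freedom. TMM scaling, filterByExpr by region with a minimum count of 10, and Benjamini-Hochberg adjustment at 0.05 over all tested genes were used. CPM are per 1000000 TMM-scaled counts of the genes used. A count of 0 allows up to 3 counts, and 95% intervals on pooled ratios are exact binomial ones; both cover counting error only. The fit was tested on simulated data of this design with 16273 genes tested, and at an assumed dispersion of 0.01 it recovered 84.8% of 2-fold and 99% of 4-fold changes with 6 false calls. Only 200 genes were changed there, the others had equal means in both regions, and no effect of sex or diet was added. In the data most genes were called, so the simulation does not give the error among these calls. Alternatives were DESeq2 1.42.0, RLE factors, library totals, edgeR's earlier method, no filter, male libraries, fewer terms, a test against a log2 difference of 1, and each library left out. Named genes were the 4 markers, the 15 leading genes each way with a mean of at least 10 CPM, up to 4 called and 2 uncalled members per list, and further members of peptide, transmitter, receptor and factor lists by role. Members and lists were chosen with earlier results of these data known. Some members are counted in their lists but not reported by name here. Promoters are from RefSeq on GRCm38.p6.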

Additional observations from a re-analysis of the deposited data

Results flagged for a closer look

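Among the 139 named genes with enough counts to look for a library apart from the other prefrontal cortex libraries, 12 had one, and with 4 libraries chance gives such a gap in about 1 of 20 groups. The male NP library stood apart for Slc17a7 (1946 CPM, below the others), Lhx6 (22.4 CPM, below), Trappc9 (87.8 CPM, below), Tle4 (66.3 CPM, above), Cplx3 (14.9 CPM, above) and Nfe2l3 (3.23 CPM, above). The male LP library stood apart for Adra2a (18.5 CPM, above) and Ddc (3.32 CPM, below). The female LP library stood apart for Grm3 (71.6 CPM, above), Htr2a (11.3 CPM, above), Hcrtr1 (4.78 CPM, above) and Acta2 (4.46 CPM, below). For Slc17a7, Ddc, Grm3, Acta2 and Cplx3 these gaps are small beside the distance between the regions.

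The log2 ratio of hypothalamus to prefrontal cortex for Vwf was 1.13 in LP males and -0.05 in NP males. The signs are opposite, each ratio rests on 1 library against 1, and the difference was not tested.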

How the results depend on the processing

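Of 9604 genes called, DESeq2 called 6647, with 3162 higher and 3485 lower. Library totals gave 7373 higher and 3053 lower, and a test against a log2 difference of 1 gave 2302, with 1190 higher and 1112 lower. Leaving out 1 library gave 7654 to 9787 calls, 3748 to 5050 higher and 3906 to 4737 lower, the fewest without PFC male LP. With 1 hypothalamus library left, that library was assumed to vary like the other group. Of 161 called genes named in the text, 133 kept direction and call in every setting, 28 lost the call in at least 1 setting and 16 of these in a setting other than the size test. Without Hyp male LP the sign of Vwf changed, its log2 difference lying at -0.0347 to 1.12 with each library left out. Of the 18 named genes not called, Slc17a8 (0.0389) and Kcnk9 (0.034) changed sign with library totals, and with libraries left out in turn Cux1 (-0.0549 to 0.0598), Rian (-0.0519 to 0.11), Lhx9 (-0.0374 to 0.81), Gabra5 (-0.0619 to 0.10), Pgr (-0.22 to 0.55), Tle4 (-0.18 to 0.41) and Dlx2 (-0.0762 to 0.68) lay on both sides of 0. Library totals called 12 of them, and the cause was not tested beyond the shift in scale. Cdkn1c was not among these 18 genes, nor among the 139 examined for a library apart. No paired analysis was possible because the labels give no replicate numbers and do not tie regions to animals. The fit of the male libraries, which matches the regions by diet, called 8622 genes, 4423 higher and 4199 lower. Its log2 differences follow those of the main fit nearly by construction, because the sex term takes up the female libraries. The same holds for the fits without a female prefrontal cortex library, so these settings are no independent check of size or direction. With 2 residual degrees of freedom and 1 library per region, sex and diet, spread between animals is not known, sex is estimated in prefrontal cortex alone, and genes near 0 counts have wide intervals.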
